A study of Mus musculus with 8 samples.

Results

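The mouse microRNAs (miRNAs) with numbers from miR-680 to miR-721 were followed in primary mouse oligodendrocytes that aged in culture. The array held 42 such entries, read by 160 probes, of 650 miRNAs and 1857 probes in all. Members were taken by name, leaving out entries whose name ends in a star, and miR-716 was not analysed here. The range of numbers had been picked because miR-690, miR-706, miR-710, miR-711 and miR-714 differed between days in these same arrays. All differences between days are therefore given as descriptions, without p-values.

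Every sample was total RNA of C57BL/6J oligodendrocytes of genotype CNP-Cre, in which Cre recombinase is driven by the promoter of an oligodendrocyte gene; the labels name no floxed allele. The labels call the cells of day 0 (n = 3) and day 1 (n = 2) immature and those of day 6 (n = 3) mature, and name no treatment, so time in culture is the only difference they record. The series text instead counts the immature cultures as 1 and 2 days in culture, so the day numbers used here are those of the sample labels. Cells were shaken off primary cultures and plated in medium with B27, horse serum and thyroid hormones. The series text calls the samples independent, but the animals or litters behind them are not given in the sources used here, and an SD measures the spread between these samples only. Because each array measured a whole culture, fewer cells of a type and less of a miRNA per cell cannot be told apart.

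MiRNAs are short RNAs that guide Argonaute proteins to messenger RNAs, mainly through base pairing of the seed, the bases near the 5′ end, and thereby lower the output of those messages. Their numbers follow the order of registration and not kinship, so neighbours in number need not share a seed, a locus or a role. Many entries in this range were registered from small RNA sequencing of mouse tissue and have no known human counterpart. Oligodendrocytes need miRNAs to mature: loss of the processing enzyme Dicer in this lineage impairs myelination, and miR-219 and miR-338 are the best known contributors.

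For 26 of the 42 members the RefSeq table of build GRCm38.p6 held a mature sequence under the same name, and 7 of these 26 belonged to the 13 members detected on at least 3 arrays. These 7 are printed because they include miR-690, miR-706, miR-710 and miR-711, with miR-130a-3p beside miR-721 because both carry the same seed. Capitals mark bases 2 to 8, the seed, and the rest is in lower case, 5′ to 3′.
miR-690: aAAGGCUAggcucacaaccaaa
miR-706: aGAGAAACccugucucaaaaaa
miR-710: cCAAGUCUuggggagaguugag
miR-711: gGGACCCGgggagagauguaag
miR-680: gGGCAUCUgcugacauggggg
miR-705: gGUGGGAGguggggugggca
miR-721: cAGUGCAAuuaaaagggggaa
miR-130a-3p: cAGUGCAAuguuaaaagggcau

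The 7 members had 7 distinct seeds, so by this measure they are not a family. The seed of miR-721 stood in 6 other mature entries of RefSeq, among them miR-130a-3p, with which it shared its first 9 bases. The seed of miR-705 stood in 3 other entries, and those of the other 5 members in none. A run of 4 G occurred in 5 of the 7, namely miR-680, miR-705, miR-710, miR-711 and miR-721. With a sequence for only 61.9% of the 42 members, a check of base composition over the whole set was void.

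MiR-690 lies at chr16:28599940-28599961 on the minus strand, within the coordinates of Fgf12, which encodes a fibroblast growth factor homologue that binds sodium channels. MiR-706 lies at chr6:120034290-120034311 on the minus strand, within Wnk1, the gene of a kinase of ion transport. MiR-711 lies at chr9:108969970-108969991 on the plus strand, within Col7a1, the gene of the chain of type VII collagen. MiR-705 lies at chr6:85336341-85336360 on the minus strand within Rab11fip5, and miR-721 at chr5:136375777-136375797 on the minus strand within Cux1, the gene of a homeobox transcription factor. MiR-710, at chr8:64514401-64514422 on the minus strand, lay within no annotated gene other than its own. MiR-680 has 3 identical copies, on chromosomes 6, 12 and X, none within another gene. The table used does not say whether these positions are exonic or intronic.

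The sequence of miR-706 recurred in more promoter windows than that of any other printed member. Its first 16 bases, as DNA AGAGAAACCCTGTCTC on either strand, occurred in 28 of 32851 RefSeq promoter windows (0.0852%), each covering 250 bases before to 50 after a gene start. The first 16 bases of each of the other 6 printed members occurred in at most 1 window. As background, this run belongs to the mouse B1 element, a short interspersed repeat with very many copies. A match is a description of the letters only.

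Levels are scaled signal intensities of the brightest probe on a log2 scale, with a floor of 4.20 (an intensity of 18.4) under which signals have no order. A miRNA counts as detected on an array where a share of at least 0.5 of the spots of any of its probes was well above background. Levels of different miRNAs depend on their probes, so ranks below are ranks of signal and not of molecules. The 8 arrays lay on 1 slide with 1 scan time. Day 0 replicate 1 stood apart: the spread of its negative control spots (median absolute deviation) was 30.2 intensity units, against 2.54 to 3.88 on the other arrays, and it detected 61 mouse miRNAs, against 150 to 218. Of the members it detected miR-690, miR-709 and miR-720 alone. Differences without it are given beside those with it. In the fits without it the scaling, the floor and the choice of brightest probe were set anew from the remaining arrays. Differences that use no day 0 array could therefore move too. The oligodendrocyte miRNAs miR-219, miR-338-3p and miR-138 were detected on 6, 7 and 6 arrays. Microglial miR-223 and miR-142-3p and the astrocyte-enriched miR-29a, miR-29b and miR-26a were detected on all 8. Microglial and leukocyte miR-142-5p and miR-146a were detected on 7. Among the neuronal miRNAs, miR-129-3p was detected on 8 arrays, miR-124 and miR-128 on 7, miR-132 on 4 and miR-137 on 2. Leukocyte miR-150 and the erythroid and endothelial markers were detected on 0. Of the fibroblast and mural cell miRNAs, miR-199a-3p was detected on 7 arrays, miR-143 on 4, miR-214 on 2 of day 6 and miR-145 on 0. The part of other cell types in the results was not tested. The summed intensity of 5 microglial and leukocyte miRNAs was 1419 to 2682 on day 0, 1554 to 1767 on day 1 and 1246 to 2050 on day 6, and that of 5 neuronal ones 480 to 585, 488 to 574 and 296 to 1452. For 3 oligodendrocyte miRNAs it was 168 to 3444, 240 to 2512 and 861 to 2580. For 4 fibroblast and mural cell miRNAs it was 108 to 160, 123 to 132 and 106 to 367. For each of these lists the ranges of all days overlapped.

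Most members gave no signal. Of the 42, 28 (66.7%) were detected on no array, against 340 of 569 other mouse miRNAs (59.8%). MiR-697 was detected on day 1 replicate 1 alone, at an intensity of 14.2, under the floor. The remaining 13 members (31%) were detected on at least 3 arrays, against 32.7% of other mouse miRNAs. Those 569 include 115 star entries, a class left out of the members, of which 13% were detected on at least 3 arrays. Among the 454 others without a star, 37.7% were detected on at least 3 arrays and 54.8% on none. The members without signal were miR-681 to miR-688, miR-691, miR-692, both arms of miR-693, miR-694 to miR-696, miR-698 to miR-701, miR-703, miR-704, miR-707, miR-708, miR-713, miR-715 and miR-717 to miR-719. Their scaled intensities ran from -63.6 to 117, and the highest away from day 0 replicate 1 was 18.5. On day 0 replicate 1, 6 of them lay above the floor without being well above background. The star entries miR-708* and miR-712* were detected on 0 arrays. In number order and with star entries left out, the neighbouring entries miR-670 to miR-679 and miR-741 to miR-744 included miR-671-5p on 7 arrays and miR-744 on 3, with the others on none.

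**Figure D1:**
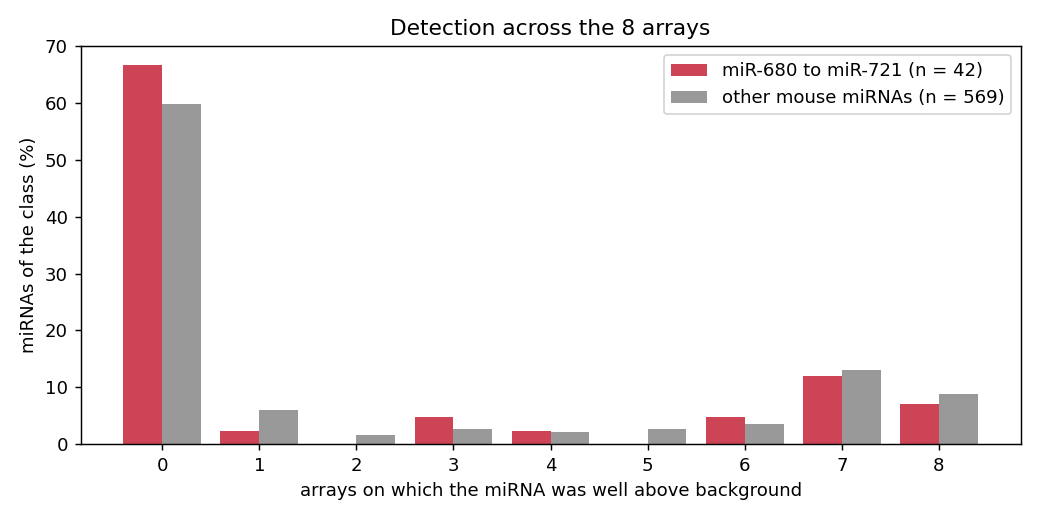
Percentage of miRNAs (y axis) by the number of arrays, 0 to 8, on which they were well above background (x axis), for the 42 members (red) and 569 other mouse miRNAs (grey). Both classes pile up at 0 arrays, with 66.7% of the members and 59.8% of the others there. The others include 115 star entries, a class left out of the members. Among the others without a star, 54.8% were on 0 arrays.

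The members detected on all 8 arrays were miR-720, miR-709 and miR-690. MiR-720, an entry that miRBase later withdrew as a likely fragment of a transfer RNA, was the brightest of all 199 mouse miRNAs tested on every day. Its levels were 14.13, 13.28 and 13.17 at day 0, 13.49 and 13.58 at day 1, and 13.39, 13.65 and 13.64 at day 6. The days overlapped, and the highest value was that of day 0 replicate 1. The log2 difference between day 6 and day 0 was 0.03 ± 0.30 (SE), and 0.47 ± 0.20 without that array. MiR-720 alone made up 13.7% to 23.9% of the summed signal of the mouse miRNAs detected on each array, and all members together 16.7% to 25.9%. The highest share of each was again that of day 0 replicate 1. On that array only 61 mouse miRNAs entered the sum, against 150 to 218 elsewhere.

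**Figure D2:**
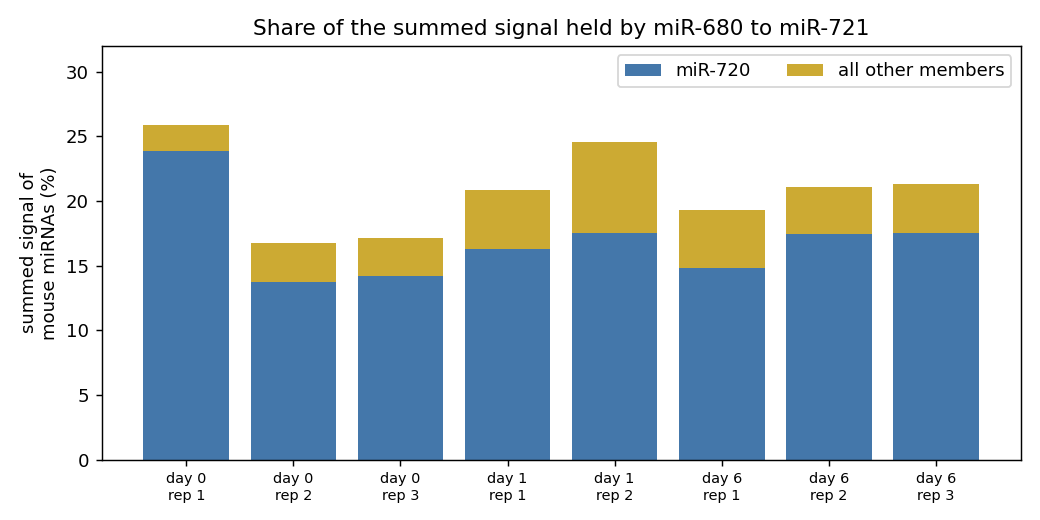
Share of the summed signal of mouse miRNAs (%, y axis) held by miR-720 (blue) and by all other members (yellow) on each of the 8 arrays (x axis), with no error bars because each bar is 1 array. MiR-720 held between 13.7% and 23.9%, most of the members' total on every array. Each sum covers the mouse miRNAs detected on that array.

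MiR-709, which has been described in the mouse as a nuclear regulator of miR-15a and miR-16-1 processing, ranked 8 of 199 by mean level. It stood at 10.09, 10.32 and 9.99 at day 0, 10.80 and 11.39 at day 1, and 10.65, 10.52 and 10.26 at day 6. Both day 1 arrays lay above every array of day 0 and of day 6, and day 6 overlapped day 0. The log2 difference was 0.96 ± 0.29 (SE) between day 1 and day 0 and -0.62 ± 0.29 between day 6 and day 1. Without day 0 replicate 1 they were 1.00 ± 0.29 and -0.54 ± 0.26. Its second probe, dimmer throughout, gave 1.14 and -0.55 for the same differences. Over all alternative fits the first ranged from 0.67 to 1.60 and the second from -0.91 to -0.04. The size of the fall after day 1 therefore depends on the processing.

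MiR-690, known from mouse macrophage vesicles as a regulator of insulin sensitivity, ranked 33 of 199. Its levels were 8.75, 9.21 and 8.91 at day 0, 9.54 and 9.75 at day 1, and 8.52, 8.55 and 8.45 at day 6. The 3 days did not overlap: day 1 was highest and day 6 lowest. Day 6 averaged 8.51 ± 0.05 (SD, n = 3), against 9.23 ± 0.42 (n = 5) on the immature arrays. The log2 difference was -1.13 ± 0.25 (SE) between day 6 and day 1 and -0.45 ± 0.23 between day 6 and day 0, and these were -1.06 ± 0.19 and -0.42 ± 0.19 without day 0 replicate 1. Its second probe gave -1.06 and -0.46, and the spots of its brightest probe agreed within a coefficient of variation of 2.16% to 6.37% on each array. Scaled to control probes instead, the difference between day 6 and day 0 was 0.07, so its direction depends on the scaling, while that between day 6 and day 1 was -0.56. None of these differences passed the threshold, an adjusted p under 0.05 from limma over all tested miRNAs.

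MiR-714 and miR-706 were low on day 0 and high on both later days. MiR-714 stood at 4.20, 4.20 and 4.43 at day 0, 8.16 and 9.61 at day 1, and 8.76, 8.43 and 8.74 at day 6. Each later array lay above each day 0 array, and the values of day 1 and day 6 overlapped. The log2 difference was 4.60 ± 0.41 (SE) between day 1 and day 0 and 4.37 ± 0.37 between day 6 and day 0, and 4.55 ± 0.48 and 4.39 ± 0.44 without day 0 replicate 1. The values of the first 2 day 0 arrays are the floor, so the size of these differences depends on it. By signal, miR-714 ranked 187 of 199 on day 0, 37 on day 1 and 38 on day 6.

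Of the 4 probes of miR-714, 3 were detected on both later days. Their differences between day 6 and day 0 were 4.37, 3.80 and 1.78 in order of brightness, and they were detected on 7, 6 and 5 arrays. The faintest was detected on day 1 replicate 2 alone. That array was also the highest for each of the other probes.

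MiR-706, the miRNA with the B1 sequence shown above, stood at 4.37, 4.59 and 4.43 at day 0, 6.67 and 6.70 at day 1, and 5.76, 5.50 and 5.84 at day 6. The values of the days did not overlap, with day 1 highest, day 6 between and day 0 lowest. Day 0 replicate 1 did not hold miR-706 well above background. The lowest signal that array detected, 200.4, lay above every later intensity of miR-706 (45.1 to 104). The order therefore rests on the other day 0 arrays. The log2 difference was 2.22 ± 0.24 (SE) between day 1 and day 0, 1.23 ± 0.22 between day 6 and day 0 and -0.99 ± 0.24 between day 6 and day 1. Without day 0 replicate 1 they were 2.23 ± 0.20, 1.32 ± 0.18 and -0.91 ± 0.18. This rests on 1 probe: a second was detected on the 2 day 1 arrays only, at 4.64 and 4.82, and the other 2 on none.

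MiR-711 and miR-710 were detected mainly on day 6. MiR-711, which has been linked to neuronal cell death after brain injury in mice, was at the floor of 4.20 on all 3 day 0 arrays and on day 1 replicate 1. It reached 5.66 on day 1 replicate 2 and 7.55, 6.59 and 6.58 at day 6. Every day 6 value lay above every immature value. Its day 6 intensities, 187, 96.3 and 95.7, were under the lowest signal that day 0 replicate 1 detected (200.4). The order against that array is therefore not settled. No day 0 array held it well above background, so only a bound can be given: day 6 was at least 2.94-fold higher than day 0. For day 0 this takes, per array, the highest of the array's lowest detected signal, the miRNA's own signal and the floor. The fitted log2 differences against floored values were 2.70 ± 0.42 (SE) between day 6 and day 0 and 1.98 ± 0.47 between day 6 and day 1, and 2.83 ± 0.50 and 2.05 ± 0.50 without day 0 replicate 1. This too rests on 1 of 4 probes: a second was detected on day 6 replicate 1 only, at 4.82, and the other 2 on no array.

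MiR-710 was at the floor on all 5 immature arrays and stood at 6.62, 5.32 and 5.69 at day 6. By the same bound, day 6 was at least 1.44-fold higher than day 0 and at least 2.78-fold higher than day 1. Beside the lower bound against day 0 stands the lowest detected signal of day 0 replicate 1, an intensity of 200.4, where the other arrays had 11.8 to 24.4. The fitted log2 difference was 1.67 ± 0.34 (SE) between day 6 and day 0, and 1.80 ± 0.36 without that array. A second probe gave 6.42, 5.43 and 5.33 at day 6, and the other 2 were detected on no array. For both miR-711 and miR-710, replicate 1 was the highest of the 3 day 6 arrays.

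**Figure D3:**
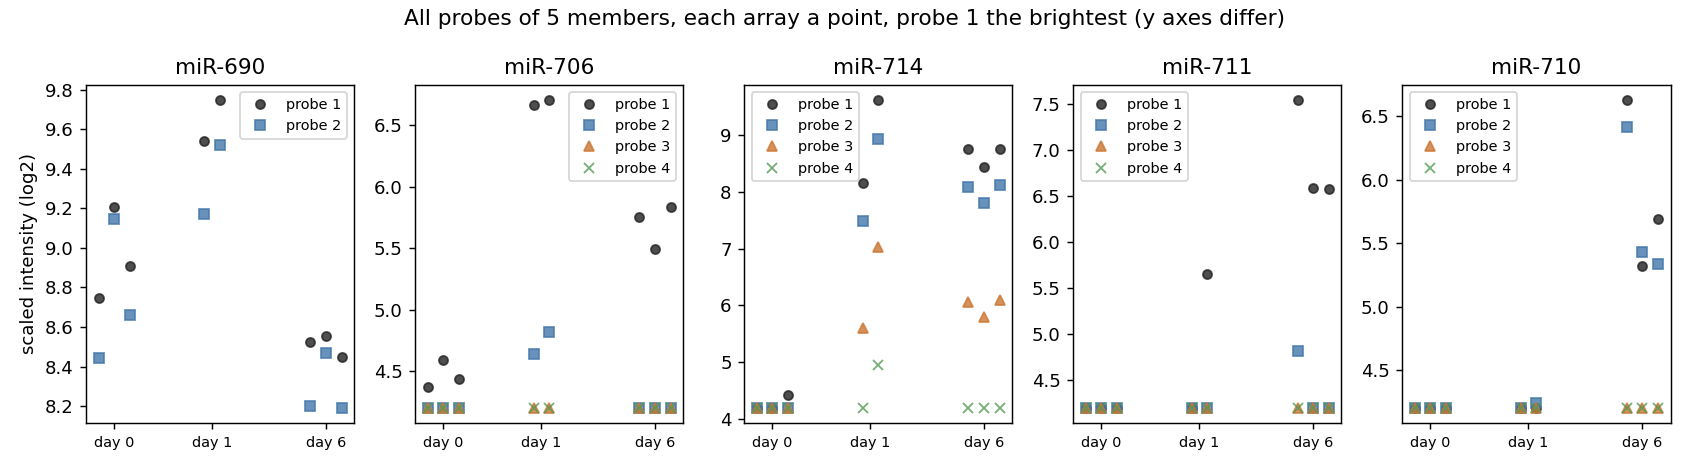
Scaled intensity (log2, y axis) of every probe of 5 members on each array (x axis, grouped by day), with 1 point per probe and array and probe 1 the brightest. Both probes of miR-690 and 3 of 4 of miR-714 show the same order of day means, while miR-706 and miR-711 rest on their brightest probe.

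MiR-689 and miR-712 were detected in most samples, with day 6 above day 0. MiR-689 stood at 7.67, 7.00 and 7.51 at day 0, 7.10 and 8.20 at day 1, and 8.30, 7.89 and 8.23 at day 6. The difference between day 6 and day 0 was 0.75 ± 0.34 (SE), with no overlap of the values, and 1.02 ± 0.41 without day 0 replicate 1. On that array miR-689 was not well above background. Its second probe gave 1.78 with all arrays. That probe stood at 4.25 on day 0 replicate 1, where it was not well above background, and at 5.54 and 6.08 on the other day 0 arrays. MiR-712, which in mouse endothelium comes from the precursor of ribosomal RNA, stood at 4.20, 4.20 and 4.34 at day 0, 4.53 and 5.04 at day 1, and 5.14, 4.67 and 5.09 at day 6. It lay close to the floor throughout, and its difference between day 6 and day 0 was 0.72 ± 0.25, and 0.75 ± 0.26 without day 0 replicate 1. With the floor set at each array's lowest detected signal it was -0.34, so its direction depends on the floor. Neither passed the threshold.

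MiR-680 and miR-721 were each detected on 7 arrays by all 4 of their probes. MiR-680 had levels of 5.73, 5.58 and 5.54 at day 0, 5.17 and 5.72 at day 1, and 6.10, 5.16 and 5.94 at day 6, and the days overlapped. Its difference between day 6 and day 0 was 0.12 ± 0.31 (SE), and 0.30 ± 0.33 without day 0 replicate 1. MiR-721, known in mice as a product of T helper cells in myocarditis, had 4.20, 5.84 and 6.04 at day 0, 4.42 and 5.13 at day 1, and 6.52, 5.37 and 6.23 at day 6. Day 6 lay above day 1, with a difference of 1.26 ± 0.60 (SE) that missed the threshold, and its 4 probes gave 1.26 to 1.35. Without day 0 replicate 1 this difference was 1.34 ± 0.40, and that between day 1 and day 0 was -1.11 ± 0.43 in place of -0.59 ± 0.60. Among array entries whose names match miR-721's seed, miR-130a was far brighter, with 9.17, 9.62 and 10.07 at day 0, 9.23 and 8.78 at day 1, and 8.59, 9.33 and 9.63 at day 6. The day 6 and day 1 values of miR-130a overlapped, unlike those of miR-721.

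MiR-702 and miR-705 stayed near the floor. MiR-702, which is spliced from an intron without Drosha (a mirtron), had 6.79, 4.20 and 4.20 at day 0, 4.20 and 4.71 at day 1, and 4.39, 4.60 and 5.14 at day 6. MiR-705 had 5.93, 4.20 and 4.20 at day 0, 4.20 on both day 1 arrays, and 4.41, 4.20 and 4.24 at day 6, where it was not well above background on any array. In both, the one high value is that of day 0 replicate 1 and was not well above background. Without that array the difference between day 6 and day 0 was 0.63 for miR-702, where it had been -0.36, and 0.20 for miR-705, where it had been -0.50. No direction can be read for either.

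**Figure D4:**
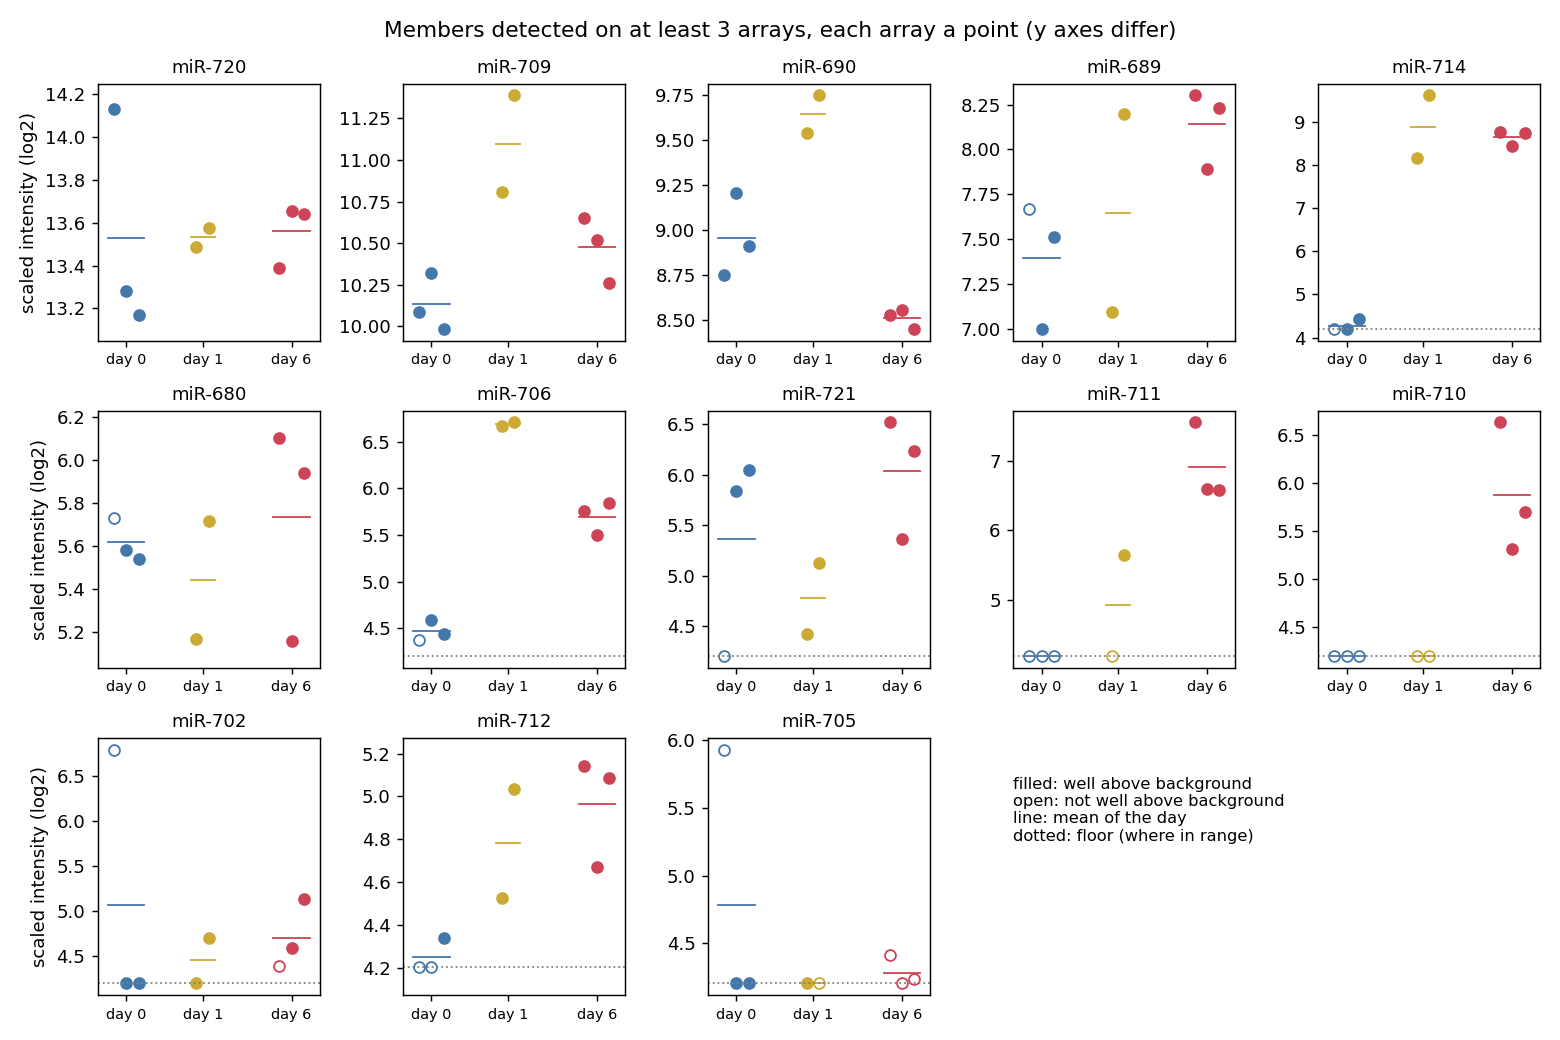
Scaled intensity (log2, y axes that differ between panels) of the 13 members detected on at least 3 arrays, with 1 point per array, grouped by day (x axis). Filled points were well above background, open ones were not, and lines are day means. MiR-714 and miR-706 are low on day 0 only, miR-711 and miR-710 are highest on day 6, and miR-690 and miR-709 are highest on day 1.

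Across all 199 tested mouse miRNAs, limma with Benjamini-Hochberg adjustment gave a background against which to set the members. Between day 6 and day 0, 4 of 13 members were called (miR-706, miR-710, miR-711 and miR-714), where 8 of 199 miRNAs (4.02%) were. Between day 1 and day 0, 2 of 13 were called (miR-706 and miR-714), where 3 of 199 (1.51%) were. Between mature and immature cells, 3 of 13 were called (miR-710, miR-711 and miR-714), where 4 of 199 (2.01%) were. The miR-714 call there comes with its low day 0 values: its day 6 arrays overlapped the immature ones, and with days 0 and 1 as 1 group the count was 2, miR-710 and miR-711. Between day 6 and day 1 limma called 0 members and 0 of 199 miRNAs (0%), with 17 miRNAs at an unadjusted p under 0.05. All called members were higher on the later day, and the 3 contrasts with day 0 share its arrays. The range of numbers was chosen from these contrasts, so nothing is read from the members' counts.

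Without day 0 replicate 1 the called members were the same in each contrast. Other arrays mattered: without any 1 of the day 6 arrays, 0 members were called between mature and immature cells. Without a day 6 array miR-710 was not tested in any contrast, because only the 3 day 6 arrays detected it, and 12 members remained. Between day 6 and day 0 the count was 1 when replicate 2 or 3 of day 0, or replicate 1 or 2 of day 6, was left out. It was 2 when either day 1 array or replicate 3 of day 6 was left out. MiR-714 was called in each of these 7 fits.

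The median log2 difference of the 13 members was 0.68 between day 6 and day 0, against 0.03 over all 199 miRNAs, with 10 of the 13 members and 51.3% of all 199 above 0. These figures include the 5 members for which the range was picked, so nothing is read from them. It was 0.25 between day 1 and day 0, against -0.06, and 0.19 between day 6 and day 1, against 0.05. The differences of single members ranged from -0.50 to 4.37 between day 6 and day 0 and from -0.61 to 4.60 between day 1 and day 0. The members did not share 1 time course.

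**Figure D5:**
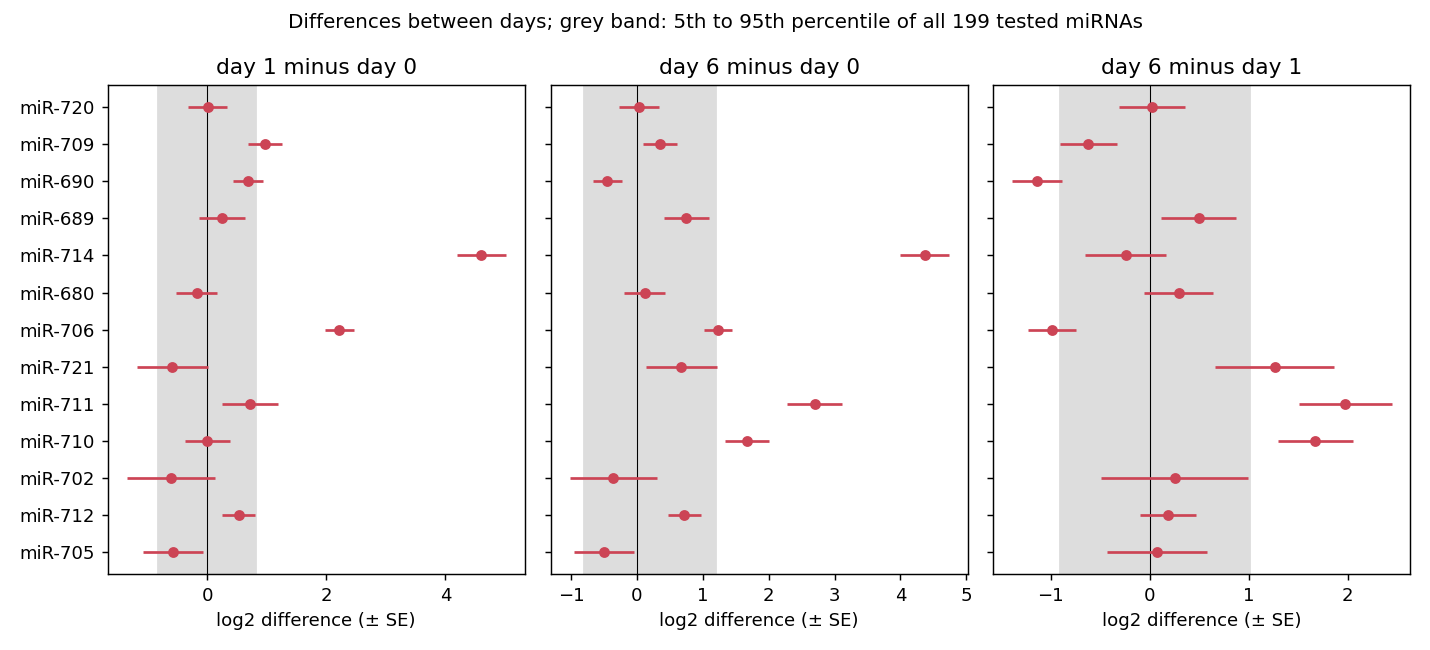
Log2 difference (x axes, with SE) of each of the 13 members (rows) for day 1 minus day 0, day 6 minus day 0 and day 6 minus day 1, with the 5th to 95th percentile of all 199 tested miRNAs in grey. MiR-714 lies far to the right at 4.60 and 4.37 in the contrasts with day 0 and at -0.24 between day 6 and day 1.

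Of the 199 miRNAs tested, 13 were members. The miRNAs with the most similar course over the 8 arrays lay both inside and outside the number range. For miR-690 they were miR-92a (r = 0.93), miR-466i (0.84) and let-7d (0.80). The miR-17 cluster named in the title of the series holds miR-92a, but the array does not show from which locus the signal came. For miR-706 the most similar were miR-494 (0.98), miR-714 (0.90) and miR-709 (0.86), and for miR-714 they were miR-494 (0.91), miR-706 (0.90) and miR-671-5p (0.90). For miR-711 they were miR-139-3p (0.98), miR-483 (0.97) and miR-1224 (0.95), and for miR-710 they were miR-711 (0.92), miR-483 (0.91) and miR-139-3p (0.91). Without day 0 replicate 1 these 15 values of r lay between 0.79 and 0.98. They are Pearson correlations of points that share arrays and scaling, given as descriptions.

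The classes differed in probes per miRNA: 160 probes read the 42 members and 1599 the 569 other mouse miRNAs. Shares supported by at least 2 or by all probes depend on that number, so no difference in support is read from them. At least 2 probes were detected on 3 or more arrays for 11 of 13 tested members (84.6%) and for 150 of 186 other tested miRNAs (80.6%). All probes were detected on 3 or more arrays for 6 of the 13 and for 140 of the 186. MiR-706 and miR-711 were the 2 members with a single such probe.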

How the data were processed

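The members and all lists were chosen with earlier results of these data known. Per the file headers, the deposited spot intensities came from Agilent Feature Extraction 9.5, which had subtracted the background, and they were not scaled between arrays. The submitters' value table holds the same deposited intensities (largest difference 0). The other deposited columns used are the scanner's flags for spots well above background, outliers and saturation, per the file headers; no spot was saturated.

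Of 13715 spots per array, 13000 were no controls. Probe values are means of spots without an outlier flag. Arrays were scaled to a common 75th percentile, taken over 91 probes that every array detected. Signals under the 5th percentile of detected values were raised to that floor, and log2 taken. The brightest probe stood for a miRNA. Of 611 mouse miRNAs, the 199 with detection on 3 or more arrays were fitted with limma 3.58 in R 4.3, with 1 mean per day over all 8 arrays and two-sided tests, in 4 contrasts. The script was tested on simulated data. Every member detected on at least 3 arrays is named with all its values. The number of arrays limits the precision. Alternatives concerned scaling, background, probe summary, floor, filter, outlier spots, arrays in the fit and a replicate block. Sequences and coordinates are RefSeq's, build GRCm38.p6. Figures used Python 3.11 and matplotlib 3.10.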

Additional observations from a re-analysis of the deposited data

How the results depend on the processing

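Counts of called members by limma moved with the processing. Between mature and immature cells the count of 3 became 0 with normexp, scaling over all probes, averaged probes, a floor at each array's lowest detected signal, no detection filter, only miRNAs on all 8 arrays (which leaves 3 members) or the replicate block, and 1 (miR-690, lower on day 6) with the floor doubled. It was 2 without scaling and with days 0 and 1 as 1 group, and 4 with scaling to control probes, which added miR-712. Between day 6 and day 0 the count of 4 became 0 with the array floor or only miRNAs on all 8 arrays, 1 with averaged probes, scaling over all probes, the floor doubled or the replicate block, and 2 without scaling, with normexp, without the filter, or with only the arrays of these days. It was 5 with scaling to control probes, again with miR-712. Between day 6 and day 1 the count of 0 became 2 with scaling to control probes (miR-710 and miR-711, higher) and with the floor doubled (miR-690 and miR-706, lower), and 1 (miR-690, lower) with only miRNAs on all 8 arrays. Between day 1 and day 0 the count of 2 became 1 (miR-714) with normexp or averaged probes, and 0 with the array floor or only miRNAs on all 8 arrays. Leaving out 1 array gave 0 to 3, 1 to 4, 0 to 0 and 2 to 2 in the same order. Apart from the fits with fewer miRNAs or arrays, the cause was not tested. Deviations of same-numbered samples from their day means correlated at r from -0.71 to 0.32. With 2 or 3 arrays per day these deviations are tied to each other, so they cannot show whether same-numbered samples were paired. Scaling to control probes moved the median of all miRNAs to 0.55, 0.50, 0.58 and -0.12, and scaling over all probes moved that of day 1 against day 0 to 0.38. Of 976 values of single members under alternatives, 827 differed from the reported log2 difference by less than 1 SD between replicates and 149 by more; no called value changed sign. Signal over background limits the members near the floor, above all on day 0 replicate 1.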
